A study of Ovis aries with 91 samples.

Results

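ENSOARG00000003826, ENSOARG00000003354 and ENSOARG00000007984 are 3 of the 13803 sheep genes listed in the deposited tables, picked by ID because they were among the strongest decreases in atrial cardiomyocytes of paced sheep. All 3 are listed in each of the 3 tables, and all 3 passed the filter on low values there (a mean log2 value of at least 0). The cardiomyocyte differences between paced and control sheep therefore chose the genes and are given below as a description, without a test. The tables carry Ensembl sheep IDs without names, and 0 of them could be matched to the reference gene table, so nothing is said of what the genes encode.

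The study sequenced RNA from sheep atria along the progression of atrial fibrillation, brought about by a tachypacing device, which stimulates the heart at a fast rate, in the right atrium. Groups were control sheep, of which S3, S4 and the G-numbered ones are labelled sham and C1 control, transition sheep and chronic sheep. Appendage sheep each gave left and right atrial appendage samples as isolated cardiomyocytes or as whole tissue, with 3 sheep in each of 6 groups per preparation. The posterior left atrium was sampled as whole tissue in 6 control and 6 transition sheep. Of 18 sheep in all, 7 gave both appendage preparations, 5 of the 12 posterior left atrium sheep also gave appendage samples, and 4 of its transition sheep, all with G numbers, have saline in their titles. The sheep shared by the posterior left atrium and the appendages rest on a match of sample titles that was not checked further. The breed, age and sex of the sheep and the length of pacing were not known here.

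Atrial fibrillation is a fast and irregular rhythm of the atria, and sustained fast activity is known to alter the electrical, contractile and structural properties of atrial muscle. A whole appendage also holds fibroblasts, vessels, fat, nerves and immune cells, so RNA from isolated cardiomyocytes is a narrower sample than RNA from tissue. The purity of the cell preparations was not checked here, since markers could not be read from IDs. The preparations also differ by the isolation of the cells itself. What isolation does to RNA levels, in control or in paced sheep, was not tested. In bulk RNA, fewer cells of a type and less RNA per cell cannot be told apart.

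Levels are deposited log2 CPM, the log2 of read counts scaled to library size, so a difference of 1 is a 2-fold change. Appendage libraries held 5.31e+06 to 1.24e+07 listed reads in cardiomyocytes and 6.24e+06 to 2.24e+07 in whole tissue. Behind the values stood 67 to 2677 reads of ENSOARG00000003826, 414 to 7505 of ENSOARG00000003354 and 33 to 864 of ENSOARG00000007984 in cardiomyocytes. In whole tissue they were 4 to 101, 296 to 1435 and 5 to 257 reads, so the tissue values of ENSOARG00000003826 and ENSOARG00000007984 are the least precise. Transcript lengths are not in the files, so levels were compared within a gene and not between genes.

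In cardiomyocytes ENSOARG00000003826 was lower in every paced sheep than in every control sheep on both sides, a pattern held by 7.54% of all genes for the left side and 5.04% for the right. In the left appendage its log2 CPM was 6.67 in C1, 8.11 in S3 and 6.995 in S4. The transition sheep D23, D24 and D27 stood at 4.87, 4.44 and 4.21, and the chronic sheep D16, D19 and D20 at 3.88, 4.17 and 4.42. The lowest control lay 1.79 above the highest paced sheep. The left mean went from 7.26 ± 0.76 (SD, n = 3) in controls to 4.51 ± 0.34 in transition and 4.16 ± 0.27 in chronic sheep, which is 6.73-fold and 8.58-fold lower.

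In the right appendage the controls C1, S3 and S4 held log2 CPM values of 6.12, 7.23 and 6.17 for ENSOARG00000003826. Values in D23, D24 and D27 were 4.44, 4.47 and 3.32, and in D16, D19 and D20 they were 3.91, 3.59 and 3.94. The gap between the lowest control and the highest paced sheep was 1.65 there. Right means were 6.51 ± 0.63, 4.08 ± 0.65 and 3.81 ± 0.19 (SD, n = 3) in control, transition and chronic sheep, 5.39-fold and 6.47-fold below control. Among 12279 genes this was between the 10th and the 15th lowest change in all 4 comparisons with control. In the order of group means, left control stood first and right control next, with overlapping values, and the 4 paced groups followed with each neighbour overlapping the next.

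ENSOARG00000003354 showed its larger difference on the right. Right log2 CPM was 8.59 in C1, 9.66 in S3 and 8.16 in S4, against 6.79, 7.14 and 6.83 in D23, D24 and D27 and 6.41, 6.21 and 6.72 in D16, D19 and D20. The lowest right control lay 1.02 above the highest paced sheep. The right mean of 8.80 ± 0.77 (SD, n = 3) in controls compared with 6.92 ± 0.19 in transition sheep, 3.69-fold lower, and 6.44 ± 0.26 in chronic sheep, 5.12-fold lower.

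On the left the groups of ENSOARG00000003354 overlapped. The controls C1, S3 and S4 held log2 CPM values of 7.79, 8.71 and 6.77, and S4 lay below D27, at 6.90, and below D20, at 7.14. The other paced sheep were D23 at 6.50, D24 at 5.87, D16 at 6.59 and D19 at 6.52. Left means were 7.76 ± 0.97, 6.42 ± 0.52 and 6.75 ± 0.34 (SD, n = 3) in control, transition and chronic sheep, or 2.52-fold and 2.01-fold below control. The left difference depended on which control was left out. Without S3 the changes of −1.33 in transition and −1.01 in chronic sheep became −0.86 and −0.53, and without S4 −1.83 and −1.50. The changes of this gene were the 21st and 19th lowest of all genes on the right, but the 240th and 465th lowest on the left. In the order of its group means, right control came before left control and right transition, followed by left chronic, right chronic and left transition, and each neighbour overlapped the next.

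ENSOARG00000007984 showed its larger difference on the left. Left log2 CPM was 6.004 in C1, 5.51 in S3 and 5.59 in S4, against 3.83, 3.34 and 2.80 in D23, D24 and D27 and 3.18, 2.67 and 2.20 in D16, D19 and D20. The lowest left control lay 1.68 above the highest paced sheep. The left mean of 5.70 ± 0.26 (SD, n = 3) in controls compared with 3.32 ± 0.52 in transition sheep, 5.21-fold lower, and 2.69 ± 0.49 in chronic sheep, 8.10-fold lower.

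On the right the 3 controls of ENSOARG00000007984 were nearly alike, with log2 CPM values of 5.30 in C1, 5.31 in S3 and 5.27 in S4. D23, D24 and D27 held 4.16, 3.94 and 3.23, and D16, D19 and D20 held 4.07, 3.48 and 3.21. All 6 paced sheep lay below the controls, by 1.12 at the closest. Right means were 5.29 ± 0.018, 3.78 ± 0.48 and 3.59 ± 0.44 (SD, n = 3), which is 2.86-fold lower in transition and 3.26-fold lower in chronic sheep. By group mean the order was left control, right control, right transition, right chronic, left transition and left chronic, and the 4 paced groups overlapped from neighbour to neighbour. Its changes were the 25th and 11th lowest on the left and the 51st and 61st lowest on the right.

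In all, 2 of the 3 genes had every paced sheep of both states below every control in left cardiomyocytes, and 3 of 3 did in right cardiomyocytes. The shares of all genes with this pattern were 7.54% and 5.04%. Because these contrasts chose the genes, nothing is read from the counts.

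**Figure D1:**
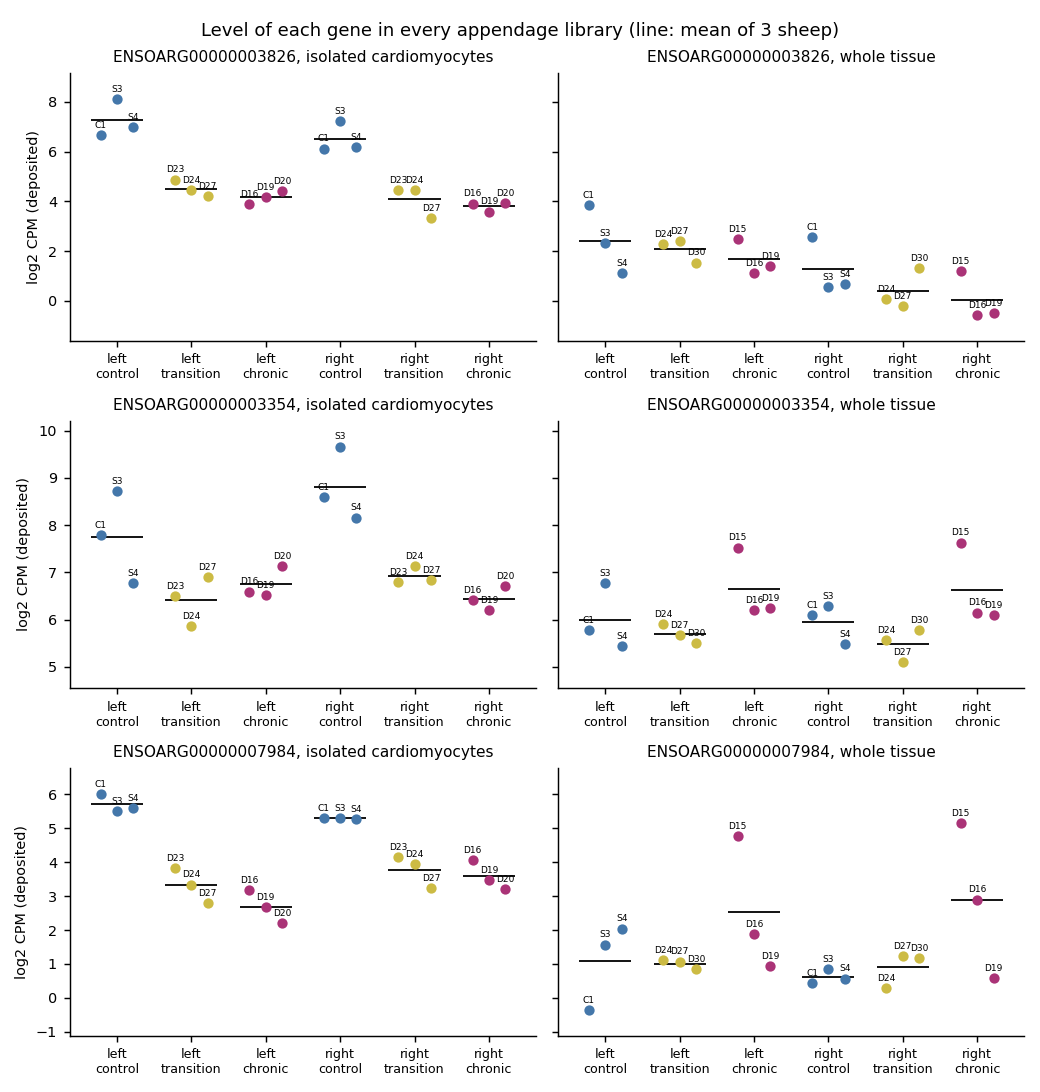
Deposited log2 CPM of each gene (rows of panels) in every appendage library, for isolated cardiomyocytes and whole tissue, with 1 point per sheep and a line at the mean of 3 sheep. Control values lie above all paced values in cardiomyocytes except for ENSOARG00000003354 on the left, while in whole tissue controls overlap the paced states for every gene and sheep D15 stands high for ENSOARG00000003354 and ENSOARG00000007984.

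Whole tissue libraries of the same appendages were not used to choose the genes, although 7 of their 9 sheep also gave cardiomyocytes. There 0 of the 3 genes changed against control in any of the 4 comparisons, tested with limma at an adjusted p of 0.05 with Benjamini-Hochberg adjustment over 12333 genes, or with voom weights on recovered reads. At an unadjusted p under 0.05 the count was 1 of 3 in right chronic tissue, beside 1965 of all genes, and 0 in left transition, left chronic and right transition, beside 1811, 2961 and 1870. At the adjusted threshold 1.49% of all genes were called in left transition, 7.49% in left chronic, 0.624% in right transition and 1.26% in right chronic tissue. No gene of the 3 had every paced sheep below every control on either side, a pattern that 5.85% of all genes showed on the left and 3.49% on the right.

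For ENSOARG00000003826 left tissue log2 CPM was 3.85, 2.31 and 1.10 in C1, S3 and S4, then 2.27, 2.40 and 1.54 in the transition sheep D24, D27 and D30, and 2.47, 1.12 and 1.39 in the chronic sheep D15, D16 and D19. Right tissue held 2.55, 0.55 and 0.69 in controls, 0.064, −0.21 and 1.31 in transition sheep and 1.19, −0.56 and −0.48 in chronic sheep. Control C1 was the highest library on each side. S4 was the lowest on the left, and the remaining controls lay among the paced sheep. All 4 changes were negative without passing the test: −0.35 ± 0.67 (SE, 95% interval −1.76 to 1.05, limma adjusted p = 0.855) in left transition and −0.76 ± 0.67 (−2.17 to 0.65, adjusted p = 0.539) in left chronic tissue. On the right they were −0.88 ± 0.67 (−2.28 to 0.53, limma adjusted p = 0.565) in transition and −1.22 ± 0.67 (−2.62 to 0.19, adjusted p = 0.392) in chronic sheep. Without C1 the left transition value turned to 0.37, and the left chronic, right transition and right chronic values were −0.042, −0.23 and −0.57.

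ENSOARG00000003354 in left tissue had log2 CPM values of 5.77, 6.77 and 5.43 in C1, S3 and S4, of 5.91, 5.68 and 5.50 in D24, D27 and D30, and of 7.52, 6.19 and 6.23 in D15, D16 and D19. On the right the values were 6.09, 6.28 and 5.48 in controls, 5.56, 5.10 and 5.77 in transition sheep and 7.63, 6.15 and 6.09 in chronic sheep. Controls overlapped both paced states, and chronic sheep D15 was the highest on both sides. Transition changes were −0.30 ± 0.39 (SE, limma adjusted p = 0.777) on the left and −0.47 ± 0.39 (adjusted p = 0.592) on the right. Chronic changes pointed the other way, at 0.66 ± 0.39 (−0.16 to 1.47, limma adjusted p = 0.327) and 0.67 ± 0.39 (−0.15 to 1.49, adjusted p = 0.424). Without D15 they were 0.22 and 0.17, and without S3 the left transition value was 0.093.

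ENSOARG00000007984 was low in most tissue libraries. Left log2 CPM was −0.35, 1.57 and 2.04 in C1, S3 and S4, then 1.11, 1.07 and 0.84 in D24, D27 and D30, and 4.77, 1.88 and 0.94 in D15, D16 and D19. Right values were 0.45, 0.85 and 0.57 in controls, 0.28, 1.24 and 1.17 in transition sheep and 5.15, 2.90 and 0.58 in chronic sheep. D15 held 184 and 257 reads of this gene on its left and right side, and the highest value in any other tissue library was 2.90, in right D16. The right chronic change was 2.26 ± 0.89 (SE, 95% interval 0.38 to 4.13), with an unadjusted limma p of 0.0211 and an adjusted p of 0.229. The left chronic change was 1.44 ± 0.89 (−0.43 to 3.32, limma adjusted p = 0.351). Without D15 these values were 1.12 and 0.32. Without D19 they were 3.40 (limma adjusted p = 0.0764) and 2.24 (adjusted p = 0.122). Transition changes were −0.078 ± 0.89 (−1.95 to 1.79, limma adjusted p = 0.983) on the left and 0.28 ± 0.89 (−1.59 to 2.15, adjusted p = 0.914) on the right. D15 gave no cardiomyocyte sample, so its cells could not be set beside its tissue.

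By group mean in tissue, ENSOARG00000003826 ran from left control, at 2.42 ± 1.38 (SD, n = 3), down to right chronic, at 0.048 ± 0.99, with all 3 left groups above all 3 right ones. ENSOARG00000003354 ran from left chronic, at 6.65 ± 0.76, to right transition, at 5.48 ± 0.35, and ENSOARG00000007984 from right chronic, at 2.88 ± 2.28, to right control, at 0.62 ± 0.21. Every neighbour in these 3 orders overlapped the next.

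Chronic and transition tissue were also compared directly. In limma 0.0% of genes passed on either side, while 1352 left and 747 right comparisons had an unadjusted p under 0.05. ENSOARG00000003354 was 0.95 ± 0.39 (SE, limma p = 0.0248, adjusted p = 0.386) higher in chronic sheep on the left and 1.14 ± 0.39 (p = 0.00894, adjusted p = 0.736) on the right. The lowest chronic value of this gene was 6.19 on the left and 6.09 on the right, and the highest transition value 5.91 and 5.77. The share of all genes that separated these states in this way was not counted, so nothing is read from the separation. ENSOARG00000007984 differed by 1.52 ± 0.89 (limma adjusted p = 0.546) and 1.98 ± 0.89 (p = 0.0397, adjusted p = 0.790), with overlapping groups. For ENSOARG00000003826 the differences were −0.41 ± 0.67 and −0.34 ± 0.67 (limma adjusted p = 0.857 and 0.983). Without D15 the left and right values were 0.52 and 0.64 for ENSOARG00000003354, 0.40 and 0.84 for ENSOARG00000007984, and −0.81 and −0.91 for ENSOARG00000003826.

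Whether the tissue change depended on the side was tested as the left change minus the right change. For transition 0.0243% of genes passed in limma, and for chronic 0.0%, with 925 and 815 genes at an unadjusted p under 0.05. None of the 3 genes passed. The transition differences were 0.53 ± 0.79 (SE) for ENSOARG00000003826, 0.18 ± 0.46 for ENSOARG00000003354 and −0.36 ± 1.05 for ENSOARG00000007984, with limma adjusted p-values of 0.931, 0.964 and 0.969. The chronic differences were 0.46 ± 0.79, −0.013 ± 0.46 and −0.81 ± 1.05, with limma adjusted p-values of 0.961, 0.998 and 0.954.

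The same sheep and side could be compared between preparations in 14 pairs. These were both sides of C1, S3 and S4 in controls, of D24 and D27 in transition and of D16 and D19 in chronic sheep. The left and right pairs of a sheep are not independent. The tables were normalised separately, so the differences are given without a test and set beside the median of all genes. In controls ENSOARG00000003826 was 2.81 to 6.68 log2 units higher in cardiomyocytes than in tissue, with a mean of 5.04 over 6 pairs, the 21st highest of 11796 genes. Its mean gap was 2.98 over 4 transition pairs and 3.52 over 4 chronic pairs, the 41st and 28th highest, and the states overlapped. Control sheep C1 had the smallest control gaps of this gene, 2.81 on the left and 3.57 on the right, against 5.48 or more in S3 and S4.

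ENSOARG00000003354 had a gap of 1.33 to 3.38 in controls, −0.040 to 1.73 in transition sheep and 0.12 to 0.40 in chronic sheep, with means of 2.31, 1.12 and 0.27. Its highest chronic pair, at 0.40, was below its lowest control pair, at 1.33. ENSOARG00000007984 had a gap of 3.55 to 6.36 in controls, 1.73 to 3.65 in transition sheep and 1.17 to 2.90 in chronic sheep, with means of 4.64, 2.40 and 1.78. Here too the highest chronic pair, at 2.90, was below the lowest control pair, at 3.55. The share of all genes with this split was not counted. The median gap over all genes was −0.32 in control, −0.35 in transition and −0.38 in chronic pairs. The control mean gaps of ENSOARG00000003354 and ENSOARG00000007984 were the 129th and 30th highest of 11796 genes, and the chronic ones the 1624th and 140th. The cardiomyocyte values enter these gaps. The ranks of the gaps, their size in controls and their fall with pacing therefore rest in part on the values that chose the genes.

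**Figure D2:**
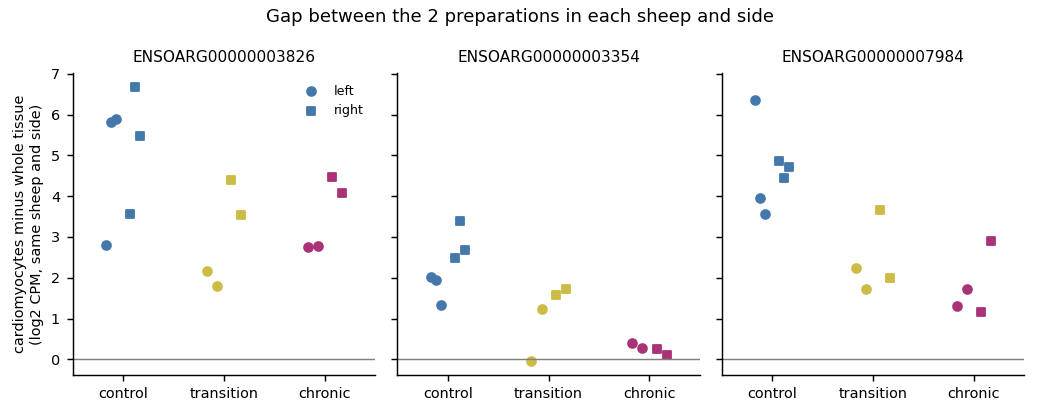
Log2 CPM in isolated cardiomyocytes minus whole tissue for the same sheep and side, 1 point per pair, with circles for left and squares for right appendages. Control pairs reach up to 6.68 for ENSOARG00000003826 and 6.36 for ENSOARG00000007984, and chronic pairs of ENSOARG00000003354 sit between 0.12 and 0.40.

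Left and right appendages were compared over all states, a contrast that is orthogonal to the comparisons with control. In cardiomyocytes it used the same libraries and the same estimate of spread as the comparisons that chose the genes. What that choice does to the cardiomyocyte p-values was not tested. ENSOARG00000003826 was higher on the left in both preparations. In whole tissue left minus right was 1.48 ± 0.32 (SE, 95% interval 0.80 to 2.17, limma adjusted p = 0.00809), and left exceeded right in 9 of 9 sheep. With 10 CPM added before the log, which shrinks differences at such low levels, it was 0.31 (limma adjusted p = 0.0309). Per sheep the difference was 1.30 in C1, 1.75 in S3 and 0.42 in S4, then 2.20 in D24, 2.61 in D27 and 0.23 in D30, and 1.29 in D15, 1.68 in D16 and 1.87 in D19. In limma 3.25% of all genes were called higher on the left in tissue, and in 2.48% the left value exceeded the right in all 9 sheep.

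In cardiomyocytes ENSOARG00000003826 was 0.51 ± 0.14 higher on the left (SE, 95% interval 0.21 to 0.81, limma adjusted p = 0.0153), where 11.7% of genes were called higher on the left. Left exceeded right in 7 of 9 sheep, by 0.43 to 0.88, and the sides were level in D24, at −0.024, and D16, at −0.034. The call was lost without chronic sheep D19, where the value was 0.47 and the adjusted p 0.0543. A fit that ignored which samples came from the same sheep gave adjusted p-values of 0.172 in cardiomyocytes and 0.0510 in tissue for the same differences.

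Neither of the other two genes passed this test, which called 11.3% of genes in cardiomyocytes lower on the left. In cardiomyocytes ENSOARG00000003354 gave −0.41 ± 0.16 (SE, limma adjusted p = 0.0708) and ENSOARG00000007984 −0.31 ± 0.11 (adjusted p = 0.0509). Both passed when libraries were scaled to equal totals, at −0.49 (limma adjusted p = 0.0296) and −0.40 (adjusted p = 0.0241). ENSOARG00000003354 also passed without S3 (−0.43, limma adjusted p = 0.0403), and ENSOARG00000007984 without C1 (−0.36, adjusted p = 0.0487). In tissue the values were 0.098 ± 0.19 (−0.30 to 0.49, limma adjusted p = 0.813) and 0.075 ± 0.43 (−0.83 to 0.98, adjusted p = 0.942), and both turned below 0 with equal totals.

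These means over states join sheep that differed in opposite directions in cardiomyocytes. ENSOARG00000007984 was higher on the left in 3 of 3 controls, by 0.41 ± 0.26 (SD), and higher on the right in 3 of 3 transition sheep, at −0.45 ± 0.14, and in 3 of 3 chronic sheep, at −0.90 ± 0.11. ENSOARG00000003354 went the other way. Left minus right was −1.05 ± 0.31 in controls, negative in 3 of 3, −0.49 ± 0.69 in transition sheep and 0.31 ± 0.12 in chronic sheep, positive in 3 of 3. ENSOARG00000003826 gave 0.75 ± 0.18, 0.43 ± 0.45 and 0.34 ± 0.33. The dependence of left minus right on the state is made of the values that chose the genes and was not tested. In tissue the means by state were 0.46 ± 1.16, 0.11 ± 0.63 and −0.35 ± 0.69 for ENSOARG00000007984 and between 0.030 and 0.22 for ENSOARG00000003354, and in each state of these 2 genes some sheep were higher on the left and some on the right.

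**Figure D3:**
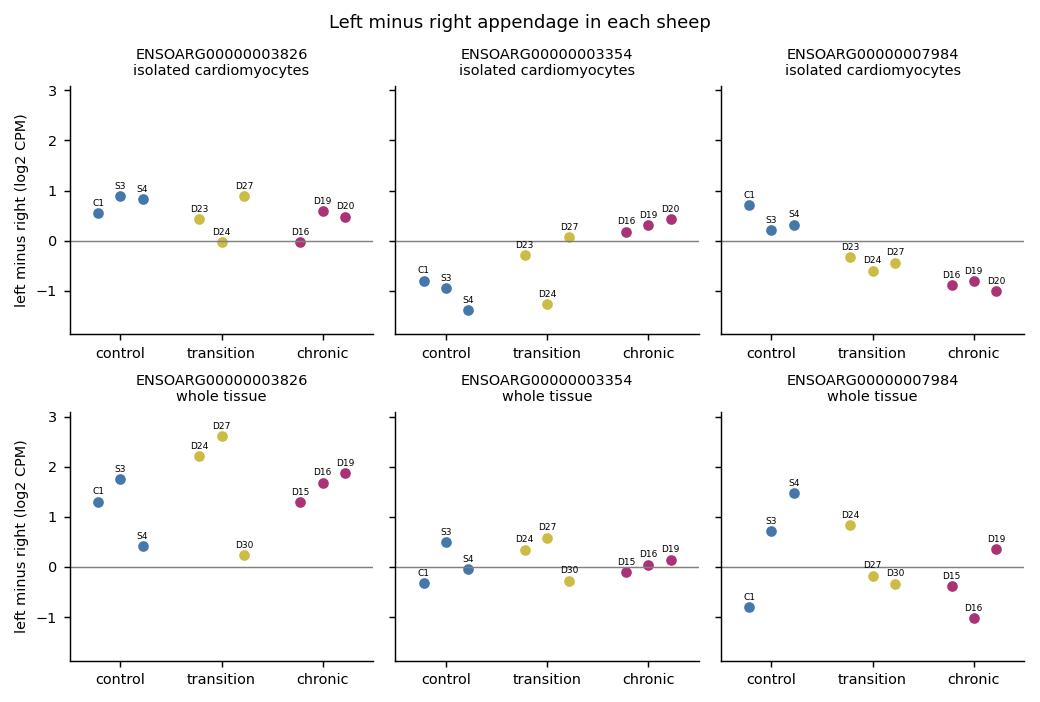
Left minus right log2 CPM within each sheep for the 3 genes (columns of panels), in isolated cardiomyocytes (top) and whole tissue (bottom), with a grey line at 0. In tissue all 9 sheep lie above 0 for ENSOARG00000003826, and in cardiomyocytes ENSOARG00000003354 and ENSOARG00000007984 cross 0 between control and chronic sheep in opposite directions.

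The posterior left atrium includes 7 sheep with G numbers that gave no appendage sample. Its deposited values do not fall on whole reads, so the depth behind them is unknown. Only 0.478% of genes had a p under 0.1 between the G-numbered sheep and the remaining ones, as after an adjustment for the set of sheep. Control values of ENSOARG00000003826 had a lowest, median and highest of 1.38, 1.90 and 3.44 (C1), and transition values 0.82 (D27), 1.58 and 2.23. The groups overlapped, with means of 2.10 ± 0.80 and 1.57 ± 0.50 (SD, n = 6). ENSOARG00000003354 had 5.89, 6.46 and 7.32 (S3) in controls and 4.97 (G13), 6.003 and 7.12 (G26) in transition sheep, with means of 6.59 ± 0.55 and 5.95 ± 0.76 (SD, n = 6). ENSOARG00000007984 had 1.31, 1.45 and 3.77 (G32) in controls and 0.17 (G5), 0.82 and 2.71 (G34) in transition sheep, with means of 2.04 ± 1.04 and 1.12 ± 0.999 (SD, n = 6). None of the 3 genes separated the states, and 3.28% of all genes had every transition sheep below every control.

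With the set of sheep as a term, 0 of the 3 genes changed in transition sheep in limma, where 17.5% of genes were called and 8.68% were called lower; at an unadjusted p under 0.05 the count was 0 of 3, beside 3749 of 12035 genes. The differences were −0.58 ± 0.35 (SE, 95% interval −1.34 to 0.18, limma adjusted p = 0.294) for ENSOARG00000003826 and −0.68 ± 0.33 (−1.38 to 0.023, adjusted p = 0.176) for ENSOARG00000003354. For ENSOARG00000007984 the difference was −0.98 ± 0.52 (−2.10 to 0.14, limma adjusted p = 0.220). What an adjustment for the set before deposit does to these errors was not tested.

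Among the 3 control and 4 transition sheep with G numbers, which are other animals than those that chose the genes, the differences were −0.28 for ENSOARG00000003826, −0.49 for ENSOARG00000003354 and −0.89 for ENSOARG00000007984. Two-sided exact permutation tests gave p = 0.4, p = 0.343 and p = 0.457, and 0.457 for each after Benjamini-Hochberg adjustment over 3 comparisons. With 35 arrangements the smallest p possible was 0.0571, so this design could not reach 0.05. Among the sheep with S, C and D names the differences were −0.996, −0.95 and −1.11, with 3 controls and 2 transition sheep.

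**Figure D4:**
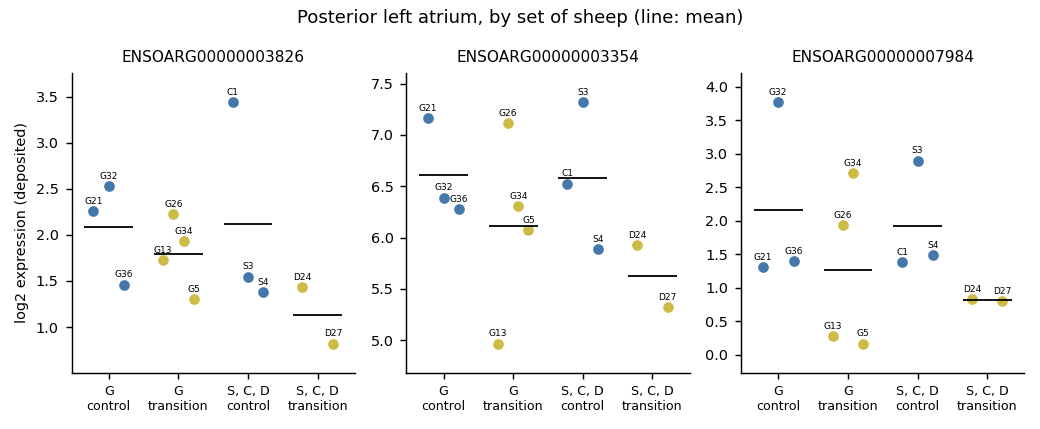
Deposited log2 expression of the 3 genes in the posterior left atrium, by state and set of sheep (G numbers, or S, C and D names), with 1 point per sheep and a line at the mean. Transition means lie below control means in each set for each gene, and the points of the states overlap for each gene among the sheep with G numbers. Among the sheep with S, C and D names they overlap for ENSOARG00000003826 and ENSOARG00000003354 but not for ENSOARG00000007984.

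For each gene the gene most like it over the 18 cardiomyocyte libraries was found among 12276 others by Pearson's r. These libraries share sheep, sides and the difference between control and paced groups, so r is a description. ENSOARG00000010939 was closest to ENSOARG00000003826 (r = 0.967, and 0.864 after the group means were taken out), with left means of 9.03, 6.95 and 6.68 log2 CPM in control, transition and chronic sheep. Over the 18 tissue libraries the same pair had r = −0.29. ENSOARG00000002601 was closest to ENSOARG00000003354 (r = 0.977, and 0.958 within groups), with right means of 4.51, 2.79 and 2.34 log2 CPM, and had no value in tissue. ENSOARG00000000415 was closest to ENSOARG00000007984 (r = 0.932, and 0.487 within groups, −0.40 in tissue), with left means of 6.34, 5.01 and 4.65 log2 CPM.

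In cardiomyocytes the 3 genes resembled each other less within groups than over them. There r was 0.779 between ENSOARG00000003826 and ENSOARG00000003354, 0.855 between ENSOARG00000003826 and ENSOARG00000007984, and 0.657 between ENSOARG00000003354 and ENSOARG00000007984, over 18 libraries. After the group means were taken out these were 0.613, 0.165 and −0.20. The r over groups holds the fall with pacing that chose the 3 genes. Its size and its drop within groups follow in part from that choice, and nothing is read from them. In tissue ENSOARG00000003354 and ENSOARG00000007984 had r = 0.762 (0.674 within groups), which was 0.194 without the 2 libraries of D15. The tissue r of ENSOARG00000003826 was higher within groups than over them, at 0.574 against 0.221 with ENSOARG00000003354 and 0.194 against −0.061 with ENSOARG00000007984.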

How the data were processed

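RNA libraries (Illumina NEBNext Ultra kit, HiSeq instrument, per the labels) were mostly sequenced in technical replicates that were merged before deposit. For the posterior left atrium of S3, S4, C1, D24 and D27 the labels list no technical replicate. The sheep with G numbers have them, so in that region this differs with the set of sheep. RSEM, limma, cutadapt and bcl2fastq were used by the authors, per the submitters' processing notes, in versions that are not stated. Aligner, genome build and strand setting were not given in the sources used here. Values deposited by the authors are on a log2 scale. In the appendage tables each value gave a whole read number within 0.05 reads, as the log2 of reads plus 0.5 on the CPM scale of a scaled library size (scaling 0.908 to 1.09 in cardiomyocytes and 0.828 to 1.14 in tissue). In the posterior left atrium 13.6% of 3600 low values did, and 0.478% of genes had a p under 0.1 between the sets of sheep. Reads that a gene shares with a near-identical or overlapping gene cannot be told apart.

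Samples were grouped by condition, region and sheep in the labels. In the posterior left atrium, samples titled S1, S2 and S3 were tied to sheep S3, S4 and C1, and T1 and T2 to D24 and D27. That match was not checked further. Nothing but the sheep name marks a replicate, so p-values rest on the spread between sheep. The log2 values, with no further pseudocount, were tested in R 4.3.3 by limma 3.58.1 (mean-variance trend) over genes with a mean of at least 0 (12279 in cardiomyocytes, 12333 in tissue, 12035 in the posterior left atrium), with Benjamini-Hochberg adjustment and a threshold of 0.05. Appendage fits held 6 group means and the sheep as a random effect. The pairing comes from the sheep names, and the consensus correlation of samples of a sheep was 0.470 in cardiomyocytes and 0.294 in tissue. The posterior left atrium fit held state and set. Exact permutation tests used scipy 1.17.1. The appendage fit was also run on simulated whole tissue values with changes added in left chronic samples. That simulation did not cover cardiomyocytes, left minus right or the posterior left atrium, and no result here rests on it. Alternatives were equal library totals, no filter, an added 10 CPM, voom weights, no pairing, one appendage alone and each sheep left out. The named genes were the 3 and, for each, the gene with the highest r over cardiomyocyte libraries. The 3 genes, and the comparisons, were chosen with earlier results of these data known.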

Additional observations from a re-analysis of the deposited data

Results flagged for a closer look

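In cardiomyocytes the sign of left minus right differed between control and chronic sheep for 2 of the genes, and between control and transition sheep for 1 of them, with every sheep of the compared states on its side of 0. For ENSOARG00000003354 the chronic mean exceeded the control mean by 1.35 log2 units, from −1.05 to 0.31. For ENSOARG00000007984 the transition mean lay −0.86 and the chronic mean −1.31 from the control mean, from 0.41 to −0.45 and −0.90. These differences were not tested, since they are made of the values that chose the genes, and they rest on 3 sheep per state. The share of all genes with such a split was not counted, so nothing is read from the counts. In tissue neither gene showed such a split. In the posterior left atrium, 6 groups (3 genes in each of the states) were examined for a sheep far from the others, and 0 were flagged. Single sheep still stood high among the controls there. ENSOARG00000007984 was 3.77 in G32 against a control median of 1.45, and ENSOARG00000003826 was 3.44 in C1 against 1.90.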

How the results depend on the processing

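Without the pairing by sheep (no replicate block), left minus right of ENSOARG00000003826 kept its size but lost its call, at 1.48 (limma adjusted p = 0.0510) in tissue and 0.51 (adjusted p = 0.172) in cardiomyocytes, and no other call changed. Equal library totals moved every gene by −0.15 in left chronic against transition tissue, −0.12 in left minus right of tissue, 0.11 in the side dependence of the tissue transition change and −0.11 in left chronic cardiomyocytes. With them left minus right in cardiomyocytes passed for ENSOARG00000003354 (−0.49) and ENSOARG00000007984 (−0.40), and in tissue it turned to −0.023 and −0.045. An added 10 CPM gave −1.62 in left transition, −1.91 in left chronic and −1.15 in right chronic cardiomyocytes for ENSOARG00000007984. It turned the side dependence of the tissue changes of ENSOARG00000003826 to −0.036 for transition and −0.10 for chronic, and left minus right of ENSOARG00000007984 in tissue to −0.022. The called tissue left minus right of ENSOARG00000003826 went from 1.48 to 0.31 with it and still passed (limma adjusted p = 0.0309). In the posterior left atrium 15 of 15 alternative values kept their direction and their side of the threshold.

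With each sheep left out in turn, left minus right in cardiomyocytes was 0.43 to 0.58 for ENSOARG00000003826, −0.51 to −0.28 for ENSOARG00000003354 and −0.36 to −0.28 for ENSOARG00000007984. In tissue it was 1.33 to 1.73 for ENSOARG00000003826, with an adjusted p of at most 0.0370, and −0.093 to 0.29 for ENSOARG00000007984. Left transition against control in tissue was −1.01 to 0.37 for ENSOARG00000003826, −0.58 to 0.093 for ENSOARG00000003354 and −0.80 to 0.40 for ENSOARG00000007984. Right chronic against transition was −0.91 to 0.12 for ENSOARG00000003826. The side dependence of the transition change was −0.0043 to 0.42 for ENSOARG00000003354 and −0.99 to 0.15 for ENSOARG00000007984, and that of the chronic change −0.19 to 0.21 for ENSOARG00000003354. The cause of these moves was not tested. Tissue values of ENSOARG00000003826 and ENSOARG00000007984 rest on as few as 4 and 5 reads, and 3 sheep per group leave wide intervals.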

Other observations

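The controls kept an order of their own in some genes. ENSOARG00000003354 was highest in control sheep S3 in each of the 5 places where S3, S4 and C1 were all sampled: 8.71 and 9.66 in left and right cardiomyocytes, 6.77 and 6.28 in left and right tissue, and 7.32 in the posterior left atrium. ENSOARG00000003826 was highest in C1 among these controls in the 3 tissue samples, at 3.85, 2.55 and 3.44, but lowest in C1 in cardiomyocytes, at 6.67 and 6.12. C1 is the control sheep whose condition label differs from sham. The sheep names in the posterior left atrium rest on a match of sample titles that was not checked further. These patterns were noticed in the values and were not tested.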
